A study of Mus musculus with 8 samples.

Results

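The genes described here are the heat shock proteins and the chaperones of the cytosol, followed in osteoblasts with and without the Wnt coreceptor Lrp5. They were selected by a rule on the gene symbol that the array's annotation gives each probe. The symbols were those of the Hsp, DnaJ, CCT and BAG families, the heat shock factor Hsf2, and the cochaperones Stip1 and St13. This rule was set with earlier results of these data known. The chaperones of the endoplasmic reticulum Hspa5, Hspa13, Hsp90b1, Dnajb9, Dnajb11 and Dnajc3 and the proteoglycan Hspg2 were left out. The rule found 105 of 25697 probes and 78 of 16593 named genes. Of those 78 genes, 53 were detected on enough arrays to be tested, out of 7041 genes tested in all. Some members sit outside the cytosol, among them Hspd1, Hspe1, Hspa9, Dnaja3, Dnajc15 and Dnajc19 in mitochondria and Dnajc10 in the endoplasmic reticulum. The genes Hsf1, Hspa1b and Hsp90ab1 were not analysed here, since no probe was named for them.

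The cells were primary osteoblasts of the calvaria, the skull vault, from C57Bl/6 mice. The 4 knockout arrays carry the genotype label Lrp5-/- and the 4 control arrays Lrp5+/+, and all 8 were taken on day 7 of differentiation in medium that held ascorbic acid at 50 ug/ml and beta-glycerol phosphate at 10 mM. An adenovirus that expressed either Cre or green fluorescent protein had been given 48 hours before differentiation began. Which virus went to which genotype, the age of the mice and whether each array had its own mouse or dish are not in the labels. Array-to-array spread may thus be technical, and it is all that the p-values below measure. The 1 Lrp5 probe was near background, detected on 1 control and 2 knockout arrays. It read 5.43, 5.70, 5.48 and 5.53 log2 on control arrays 1 to 4 and 5.63, 5.66, 6.07 and 6.11 on knockout arrays 1 to 4. Its place relative to the deleted part is not known, so it is no check on the genotypes, and every direction below rests on the labels.

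Chaperones bind proteins that are not yet folded or have lost their fold, and use cycles of ATP binding to release them in a foldable state. Hsp70 takes substrates from DnaJ proteins, which trigger its ATPase, and gives them up when a nucleotide exchange factor of the BAG or Hsp110 type opens it. Some clients pass on to Hsp90 through the adaptor Stip1, while actin and tubulin fold inside the ring-shaped chaperonin CCT. Heat shock factors raise the inducible members when unfolded proteins accumulate. An osteoblast in matrix-forming culture makes large amounts of collagen, whose folding relies on a separate set of chaperones in the endoplasmic reticulum.

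Values are probe intensities after background correction and quantile normalization, on the log2 scale, and changes are knockout minus control. A gene was called changed at an adjusted p under 0.05 in a limma fit over all 7041 genes. Depth on an array is the number of probes above background, which lay between 9685 and 10363 per array at a detection p under 0.01. The identity of the cells was checked on 10 osteoblast markers, of which 8 had a named probe and 7 passed the detection filter. Col1a1, Col1a2, Sparc, Sp7, Alpl and Pth1r were detected on all 8 arrays, and Ibsp on 1 control and 4 knockout arrays. Bglap, which encodes osteocalcin, did not pass. Less RNA of a gene per cell and fewer cells that make it cannot be told apart on these arrays.

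Of the 53 members tested, 5 were called lower and 0 higher. They were Stip1, Dnajc7, Dnajc2, Dnajc15 and Hspa12b, and Hspa12b met the detection filter only through the control arrays, where it is high. Among the 51 members detected on all 8 arrays, 4 fell and 0 rose, with 5.65% of all such genes called lower, and the changes lay between -0.36 and 0.27 on the log2 scale. With Hspa12b counted, lower calls took 9.43% of the members against 5.08% of all genes tested, and higher calls 0% against 3.54%. Calls in both directions came to 9.43% of the members against 8.62% of all genes, so the members were called at about the rate of the array as a whole. At an unadjusted p under 0.05, 13 members were lower and 5 higher. That is 34.0% of the members, against 25.8% of all genes.

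The calls stood close to the threshold and were lost when single arrays were left out. The adjusted p-values of the 5 lay between 0.0296 and 0.04. Without control array 2 or 3, or knockout array 1 or 2, no member was called lower. Without control array 1 or knockout array 3 there were 2, without knockout array 4 there was 1, and without control array 4 there were 4. Scaling to the 75th percentile in place of quantile normalization left 3, and testing every named probe with no detection filter left 0.

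Stip1, also called Hop, holds Hsp70 and Hsp90 side by side through its tetratricopeptide repeats so that a client can pass from one to the other. Its probe read 11.02, 11.02, 11.20 and 11.09 on control arrays 1 to 4. On the knockout arrays 1 to 4 it read 10.73, 10.85, 10.84 and 10.84. Every knockout array lay below every control array, with knockout array 1 the lowest. The fall was 1.20-fold, from 11.08 ± 0.08 to 10.82 ± 0.06 log2 (SD, n = 4; limma adjusted p = 0.0296). It missed the threshold with 75th percentile scaling (adjusted p = 0.0557), with the replicate number as a block (adjusted p = 0.0572) and with no detection filter (adjusted p = 0.0613).

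Dnajc7 carries a J domain and tetratricopeptide repeats and, like Stip1, binds both Hsp70 and Hsp90. It stood at 10.00, 9.89, 9.90 and 9.94 log2 on the control arrays and at 9.69, 9.68, 9.74 and 9.69 on the knockout arrays. The groups were narrow and lay apart. Dnajc7 fell 1.17-fold, from 9.93 ± 0.05 to 9.70 ± 0.03 log2 (SD, n = 4; limma adjusted p = 0.0297). It missed the threshold with the replicate number as a block (adjusted p = 0.077) and with no detection filter (adjusted p = 0.0587). With 1 array left out, the Dnajc7 call was lost in 7 of 8 fits, against 6 for each of the other calls.

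Dnajc2 sits on the ribosome, where with the atypical Hsp70 Hspa14 it meets new chains as they leave the exit tunnel. Its brighter probe read 8.57, 8.65, 8.49 and 8.32 on the control arrays and 8.17, 8.15, 8.31 and 7.97 on the knockout arrays. The groups lay apart only narrowly, control array 4 at 8.32 being next to knockout array 3 at 8.31. This probe fell 1.28-fold (SE 0.09 log2; limma adjusted p = 0.0378). A dimmer probe of Dnajc2, also detected on all 8 arrays, differed by -0.05 log2 with overlapping groups. With the mean of both probes the change was -0.20 and did not pass (adjusted p = 0.0702), nor did the brighter probe with no detection filter (adjusted p = 0.0833). The single Hspa14 probe was not detected on any array.

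Dnajc15 is a DnaJ protein of the inner mitochondrial membrane. It read 10.35, 10.45, 10.52 and 10.56 on the control arrays and 10.01, 10.07, 10.24 and 10.30 on the knockout arrays. All knockout arrays lay below all control arrays, again by a small gap. The fall was 1.24-fold (SE 0.08 log2; limma adjusted p = 0.04), and it missed the threshold with 75th percentile scaling (adjusted p = 0.0666) and with no detection filter (adjusted p = 0.0867). Its relative Dnajc19, which works at the import motor of the same membrane, differed by -0.13 (limma adjusted p = 0.29).

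Hspa12b is a distant Hsp70 relative known from endothelial cells. Its probe was close to background, detected on 4 of 4 control arrays and 1 of 4 knockout arrays. It read 5.95, 6.25, 5.93 and 5.98 on the control arrays and 5.31, 5.64, 5.82 and 5.58 on the knockout arrays, with no overlap. The signal ratio was 1.36, which is not an exact fold because most knockout arrays were at background. Since the probe entered the test only through the control arrays, its adjusted p is given for completeness and supports nothing (limma, 0.036 with the filter and 0.0799 without it). With no background correction the change was -0.15 (adjusted p = 0.0696). All 6 endothelial markers examined (Pecam1, Cdh5, Kdr, Tek, Emcn and Tie1) had a probe, and none passed the detection filter.

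**Figure D1:**
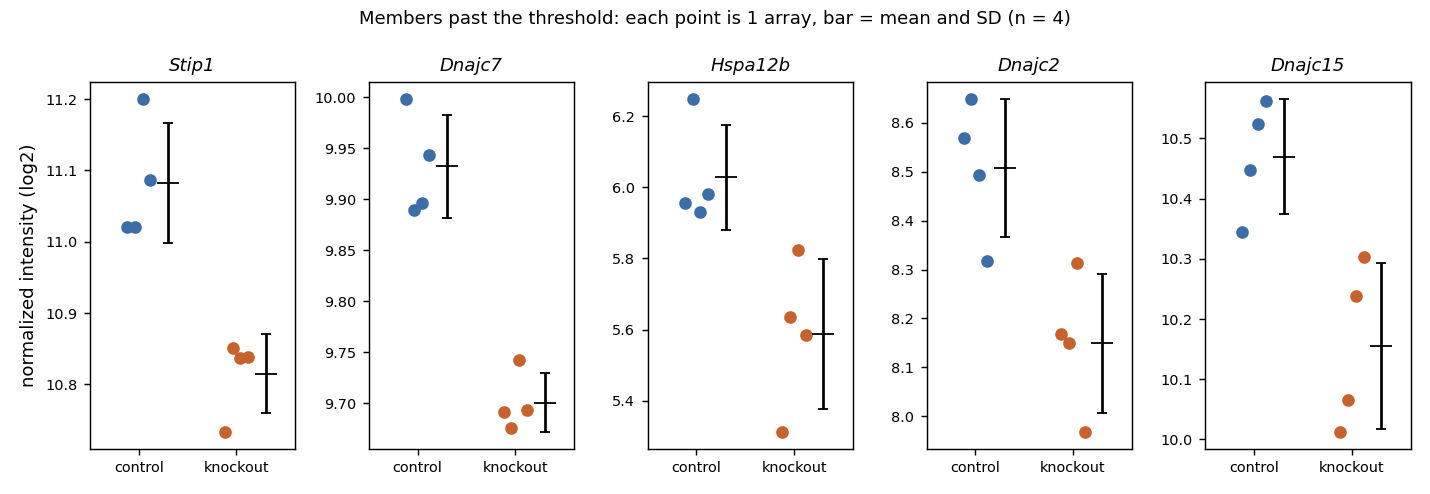
Normalized intensity (log2, vertical axes that differ between panels) of the 5 members called lower, with 1 point for each array, blue for control and orange for knockout, and the mean and SD of 4 arrays beside them. In each panel the 4 knockout points lie below the 4 control points, from 1.17-fold for Dnajc7 to a signal ratio of 1.36 for Hspa12b, which passed the detection filter only through the control arrays.

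The Hsp70 and Hsp110 group had 11 named genes, of which 7 were tested, and Hspa12b was the only one called. Of these changes 6 were below 0, and the median was -0.13. Hspa8, the constitutive Hsp70 of the cytosol, stood at 14.81 ± 0.10 log2 in control and 14.71 ± 0.06 in knockout arrays (SD, n = 4), and the groups overlapped. Its change was -0.11 with a 95% interval from -0.26 to 0.04 (limma adjusted p = 0.347), and a second Hspa8 probe differed by -0.21 (adjusted p = 0.0989 over all probes). Hspa4, an exchange factor of the Hsp110 type, differed by -0.13, and the mitochondrial Hsp70 Hspa9 by -0.04.

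The stress-inducible Hspa1a was barely above background, detected on 3 control arrays and 1 knockout array. It read 5.58, 5.74, 5.84 and 5.75 on the control arrays and 6.00, 5.25, 5.73 and 5.08 on the knockout arrays. The groups overlapped, and knockout arrays held both the highest and the lowest value. The change was -0.21 with an interval from -0.60 to 0.17 (limma adjusted p = 0.473), too wide at this signal to place. Hsp90aa1, the inducible cytosolic Hsp90, stood at 8.43 ± 0.17 in control and 8.29 ± 0.13 in knockout arrays (SD, n = 4) with overlapping groups (change -0.14; limma adjusted p = 0.382).

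Hsph1, the inducible Hsp110 exchange factor, read 10.34, 10.40, 10.23 and 10.36 on the control arrays. On the knockout arrays it read 10.31, 10.16, 9.99 and 10.10. Knockout arrays 2, 3 and 4 lay below all controls and knockout array 1 lay among them. The change of -0.19 did not pass the test (95% interval -0.36 to -0.02; limma adjusted p = 0.147).

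The mitochondrial chaperonin Hspd1 (Hsp60) and its lid Hspe1 (Hsp10) are transcribed away from each other from 1 shared promoter region. Hspe1 stood at 10.51 ± 0.08 log2 in control and 10.40 ± 0.06 in knockout arrays, a change of -0.11 (SD, n = 4; limma adjusted p = 0.289). The brighter Hspd1 probe differed by -0.13 from 11.95 ± 0.10 to 11.82 ± 0.03 (SD, n = 4; limma adjusted p = 0.241). The dimmer one read 10.34, 10.47, 10.47 and 10.48 on the control arrays and 10.02, 10.09, 10.09 and 10.18 on the knockout arrays, with a gap between the groups. It differed by -0.34 (SE 0.06; limma adjusted p = 0.0128 over all probes), so the 2 Hspd1 probes gave different calls.

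Heat shock factors bind promoters at heat shock elements, arrays of the unit GAA in alternating orientation. The promoter windows of the members, taken from RefSeq on GRCm38.p6 and running from 250 bases before to 50 after each gene's start, were searched for 3 such units in a row. Both orientations, GAANNTTCNNGAA and TTCNNGAANNTTC, were searched, and the 2 patterns are reverse complements that can overlap. Windows were at hand for 64 of the 78 genes, and 4 of them held a match: Hspd1, Hspe1, Hsph1 and Dnajb6. By window, this was 6 of 84 (7.14%) for the members, against 198 of 32851 (0.603%) for all genes. A gene can have more than 1 window, and Hspd1 and Hspe1 share the same element, so the 6 are not separate sites. The 4 genes were all tested and none was called on its brightest probe, while Hspd1 was lower on its dimmer probe, as given above, and when its probes were averaged. Of the 5 members called lower, Stip1, Dnajc7, Dnajc15 and Hspa12b had a window and 0 of these 4 held a match. With a match in 0.603% of all windows, 0 of 4 does not set these members apart. The heat-inducible Dnajb1 also had a window with no match, so a missing match does not show that such elements are absent.

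These windows are shown because they place the element in members not called on their brightest probe, beside Stip1, which fell. Capitals in Hspe1, Hsph1 and Dnajb6 mark the 3-unit element, which in Hsph1 lies within the 50 bases after the gene's start. In Stip1 they mark the 4 copies of CCAAT, a common promoter motif searched as CCAAT and ATTGG and present in 37.4% of all windows. The Hspe1 window lies at chr1:55087898-55088197 on the plus strand and shares 285 bases with the Hspd1 window of the opposite strand. Hsph1 lies at chr5:149636287-149636586 (minus strand), Dnajb6 at chr5:29735648-29735947 (plus strand) and Stip1 at chr19:7039977-7040276 (minus strand).
Hspe1: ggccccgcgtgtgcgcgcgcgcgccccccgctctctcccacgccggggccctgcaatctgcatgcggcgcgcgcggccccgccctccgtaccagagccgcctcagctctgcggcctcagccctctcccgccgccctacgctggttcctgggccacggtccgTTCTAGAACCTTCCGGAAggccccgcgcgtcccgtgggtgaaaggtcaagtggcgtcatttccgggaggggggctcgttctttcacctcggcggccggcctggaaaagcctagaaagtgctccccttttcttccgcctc
Hsph1: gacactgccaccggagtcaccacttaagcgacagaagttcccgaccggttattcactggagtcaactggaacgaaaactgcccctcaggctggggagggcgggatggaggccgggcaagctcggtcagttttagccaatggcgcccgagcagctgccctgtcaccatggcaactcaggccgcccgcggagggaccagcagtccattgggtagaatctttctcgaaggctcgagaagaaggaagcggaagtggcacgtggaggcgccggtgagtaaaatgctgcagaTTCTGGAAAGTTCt
Dnajb6: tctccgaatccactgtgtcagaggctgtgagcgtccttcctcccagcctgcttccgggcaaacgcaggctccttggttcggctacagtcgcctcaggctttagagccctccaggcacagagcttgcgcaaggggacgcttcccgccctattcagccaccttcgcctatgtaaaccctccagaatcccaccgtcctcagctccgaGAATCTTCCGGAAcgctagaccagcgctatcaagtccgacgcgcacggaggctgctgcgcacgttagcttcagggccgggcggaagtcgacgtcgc
Stip1: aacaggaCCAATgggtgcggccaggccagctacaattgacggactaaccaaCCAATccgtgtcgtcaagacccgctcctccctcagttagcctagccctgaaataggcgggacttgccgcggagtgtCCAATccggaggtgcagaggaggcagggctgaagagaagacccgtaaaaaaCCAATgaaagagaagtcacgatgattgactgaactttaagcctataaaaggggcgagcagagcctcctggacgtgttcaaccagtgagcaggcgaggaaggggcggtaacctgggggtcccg

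In Hspe1, 2 overlapping matches form 1 run of alternating units, and the same run lies in the Hspd1 window on the other strand. A match is a description of the letters, and no binding was measured here. The shorter 2-unit patterns GAANNTTC and TTCNNGAA were present in 26.2% of the members' windows and in 15.1% of all windows. None of the 4 members called lower that had a window held either pattern, and so few genes allow no contrast with the rest.

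Small heat shock proteins hold unfolding proteins without using ATP. Of 6 named, 3 were tested, 0 passed and all 3 were below 0. Hspb1 read 9.31, 9.23, 9.13 and 9.01 on the control arrays and 9.02, 8.86, 8.96 and 8.52 on the knockout arrays. The groups overlapped by a single pair, knockout array 1 standing just above control array 4. Its change of -0.33 missed the threshold (SE 0.11; limma adjusted p = 0.092), but passed under 5 other settings, at -0.26 in the authors' own log2 table (adjusted p = 0.0209). Hspb8, the partner of Bag3, differed by -0.18 (adjusted p = 0.146) and Hspb6 by -0.07 (adjusted p = 0.545). Hspb2, Hspb3 and Hspb7, known from striated muscle, were not detected on any array. Of 10 striated muscle markers, 3 passed the detection filter, and Myod1, Myog, Des and Ckm did not.

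CCT, also called TRiC, is a double ring in which each ring is built of 8 different subunits, and all 8 main subunit genes were tested. None passed, and the changes of all 8 were below 0, from -0.27 for Cct5 to -0.04 for Cct2, with a median of -0.08. Cct2 and Cct7 read close to background, at control means of 6.11 and 6.17 log2, though detected on every array. With 75th percentile scaling all 8 were still below 0, with a median of -0.05, and the median of all genes was 0.02. Over all genes tested, 50.0% of changes were below 0. Cct6a came nearest to the threshold, at 11.71, 11.81, 11.74 and 11.75 on the control arrays and 11.62, 11.51, 11.49 and 11.59 on the knockout arrays. Its groups lay apart, with a change of -0.20 (SE 0.06; limma adjusted p = 0.0606), and it passed under 4 other settings. It stood farther from the threshold with 75th percentile scaling, at -0.14 (adjusted p = 0.159), and with no detection filter (adjusted p = 0.115).

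Cct4 was also apart between the groups, at 11.91 ± 0.07 and 11.77 ± 0.08 log2 (SD, n = 4; limma adjusted p = 0.181). Cct5 differed by -0.27 with control array 3 among the knockout values (adjusted p = 0.141). Tcp1, Cct3, Cct7 and Cct8 differed by -0.05 to -0.09, and Tcp1, Cct2, Cct3 and Cct7 each had at least 1 knockout array above their control mean. A dimmer Cct3 probe differed by -0.15 with the groups apart (limma adjusted p = 0.172 over all probes), and a dimmer Tcp1 probe by -0.11 with overlap. By array, the median of the 8 subunits relative to each gene's control mean lay between -0.04 and 0.02 on the control arrays and between -0.17 and -0.07 on the knockout arrays. Cct2 turned to 0.00 and 0.03 without knockout array 3 or 4, and Cct7 to 0.04 without control array 4, so the common sign does not hold under those settings. The testis form Cct6b and Cct8l1 were not detected on any array.

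**Figure D2:**
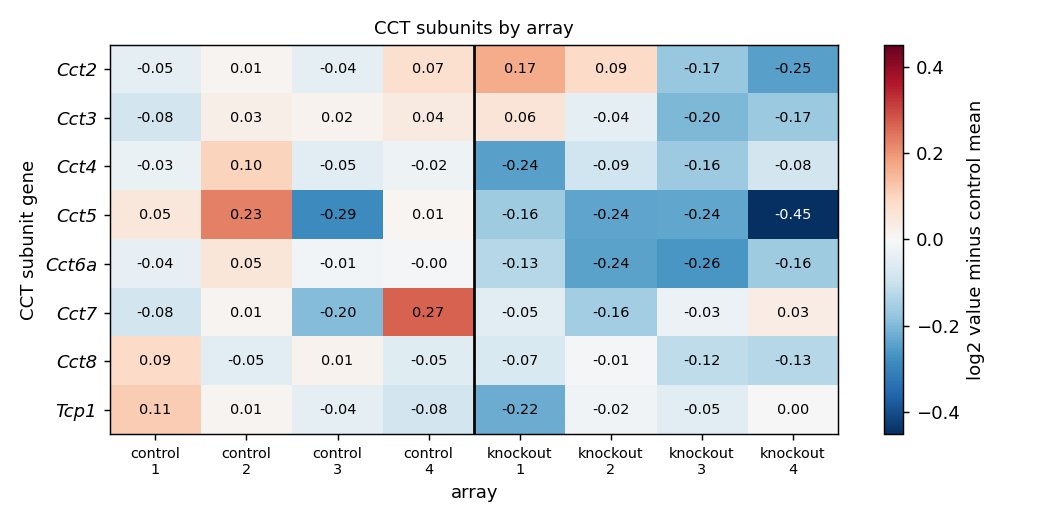
Log2 value minus the mean of the 4 control arrays for the 8 CCT subunit genes (rows) on each array (columns), with the control arrays left of the line and the value printed in each cell. Blue cells are more frequent right of the line, while Cct2 on knockout arrays 1 and 2 is above its control mean.

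DnaJ proteins bring substrates to Hsp70 and set off its ATPase, and their changes lay on both sides of 0. Of 37 DnaJ genes named, 21 were tested, 3 of class C fell and 0 rose. Over all genes tested, 5.08% were called lower and 3.54% higher. Among the 3, Dnajc2 was called on its brighter probe only, and the class is too small to give a rate. The median was 0.02 in class A (3 tested), 0.02 in class B (5 tested) and 0.00 in class C (13 tested). Class C ranged from -0.36 for Dnajc2 to 0.27 for Dnajc18 (adjusted p = 0.191). Above 0 were also Dnajc12 at 0.21, Dnajc4 at 0.20, Dnajc10 at 0.10 and Dnajc5, a chaperone of synaptic vesicles, at 0.10. Dnajc8 and Dnajc16 differed by -0.07 and -0.09, Dnajc30 by 0.00 and Dnajb12 of class B by 0.02, and none of these passed.

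By the brightest probe of each gene, Dnajb4, a relative of Dnajb1, came nearest to a rise among the members. It read 7.17, 7.45, 7.39 and 7.15 on the control arrays and 7.55, 7.70, 7.49 and 7.50 on the knockout arrays. All knockout arrays were above all controls, but the change of 0.27 did not pass (SE 0.09; limma adjusted p = 0.0764). Dnajb2 and Dnajc24 were likewise higher without overlap, by 0.21 and 0.16 (adjusted p = 0.108 and 0.132), and neither passed. Dnajc24 acts in the diphthamide modification of elongation factor 2.

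Dnajb1, the main heat-inducible partner of Hsp70 in the cytosol, stood at 10.87 ± 0.08 log2 in control and 10.86 ± 0.05 in knockout arrays (SD, n = 4; limma adjusted p = 0.948). Its change of -0.01 had a 95% interval from -0.14 to 0.13, which bounds any difference at this level more tightly than for most members. Dnajb6, which keeps aggregation-prone proteins soluble, differed by -0.08 on its brighter probe and 0.02 on its dimmer one, the only member whose 2 probes differed in sign. Dnaja1, a major cytosolic partner of Hsp70, had 2 probes, and neither was detected on any array. Dnaja2, Dnaja3 and Dnaja4 differed by -0.08, 0.02 and 0.19, with adjusted p-values of 0.38, 0.883 and 0.253.

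BAG proteins release substrates from Hsp70 by opening its nucleotide pocket. All 6 were tested, 0 passed and 5 of the changes were below 0 (median -0.08). Bag3, which directs clients to autophagy and is induced by heat shock, stood at 11.81 ± 0.07 and 11.76 ± 0.12 log2 (SD, n = 4; limma adjusted p = 0.728). Bag5 was the exception in sign, higher without overlap by 0.17 (adjusted p = 0.117). Bag2, an inhibitor of the ubiquitin ligase that works with Hsp70, differed by -0.24 (adjusted p = 0.177). Bag4, Bag6 and Bag1 differed by -0.17, -0.10 and -0.07.

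Of the other partners of Hsp70, St13, also called Hip, differed by 0.04, while Hspbp1, an exchange factor unrelated to BAG, differed by -0.29 (limma adjusted p = 0.865 and 0.15). Hspbap1, which binds Hspb1, differed by 0.06 (adjusted p = 0.791). The transcription factor Hsf2 read 6.97, 6.94, 6.55 and 7.11 on the control arrays and 7.12, 6.92, 6.98 and 6.63 on the knockout arrays. The Hsf2 groups overlapped throughout (change 0.02; adjusted p = 0.942).

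**Figure D3:**
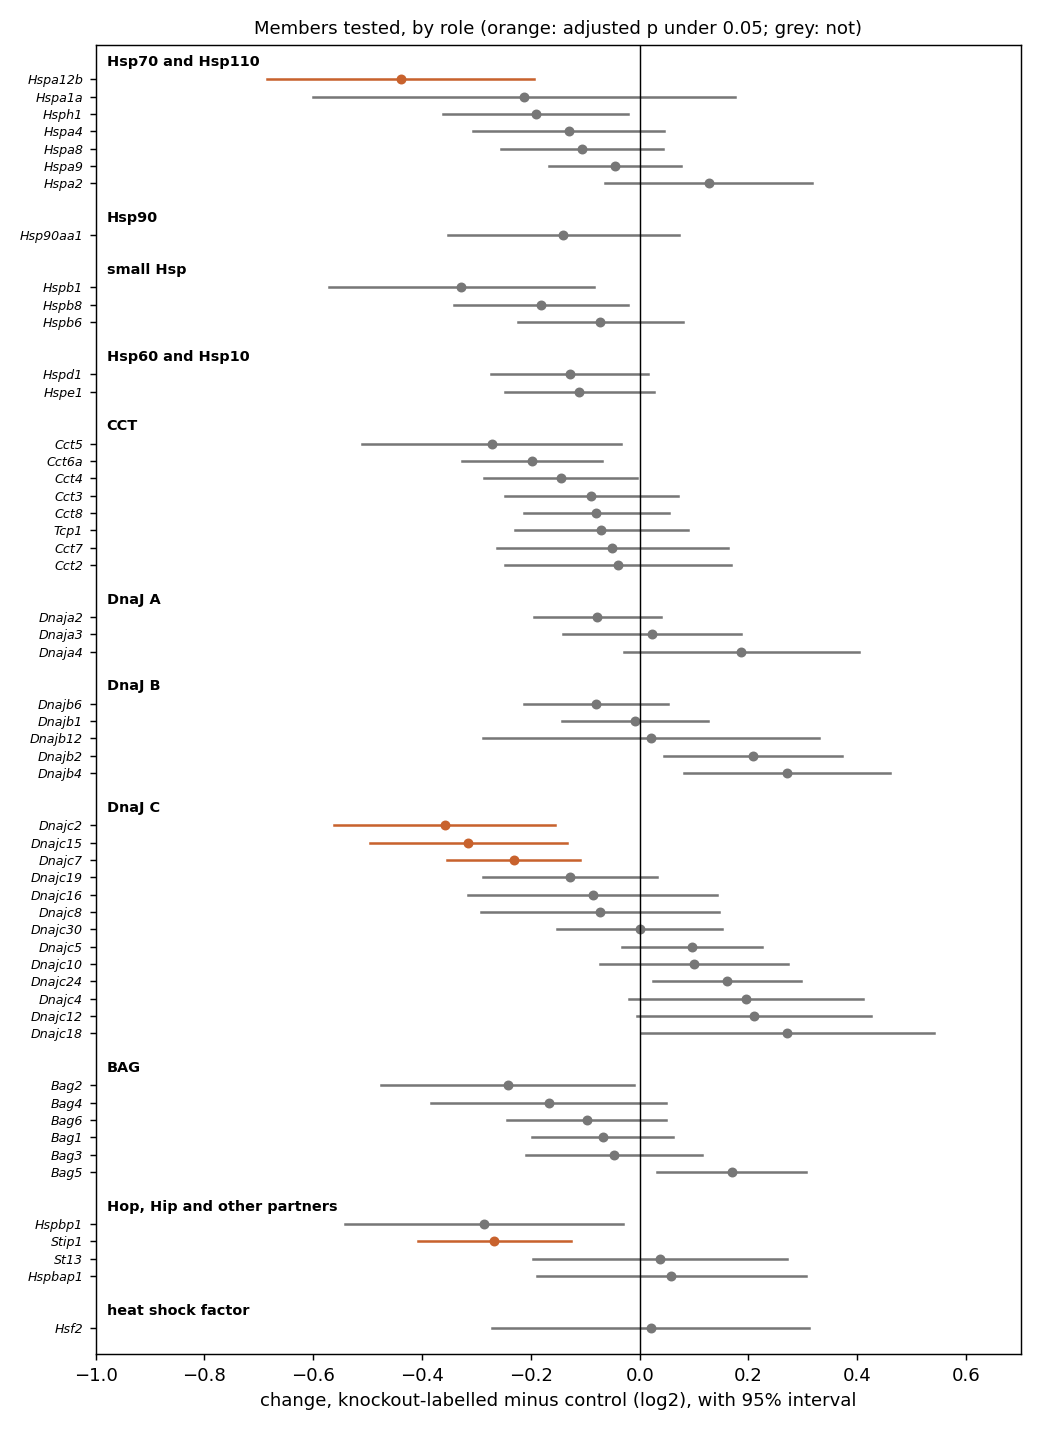
Change of each of the 53 members tested (knockout minus control, log2, points) with its 95% interval (lines), grouped by role, with the 5 calls in orange and the others in grey. All points of the CCT, small Hsp, Hsp90, and Hsp60 and Hsp10 groups lie below 0, though several of their intervals cross it. The points of the DnaJ groups spread to both sides.

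Across the 53 members, 36 changes (67.9%) were below 0 and 17 above, against 50.0% below 0 for all genes. The median change was -0.08 for the members and 0.00 for all genes, and it moved to -0.04 for the members with 75th percentile scaling, where the median of all genes was 0.02. The median size of a change, with sign ignored, was 0.13 for the members and 0.11 for all genes. Groups did not overlap for 11 members (7 lower and 4 higher), which is 20.8% against 16.8% of all genes tested. The 95% interval lay within a 1.5-fold change in either direction for 51 members and within a 1.25-fold change for 31. The 2 whose intervals reached beyond a 1.5-fold change were Hspa12b and Hspa1a, both near background.

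**Figure D4:**
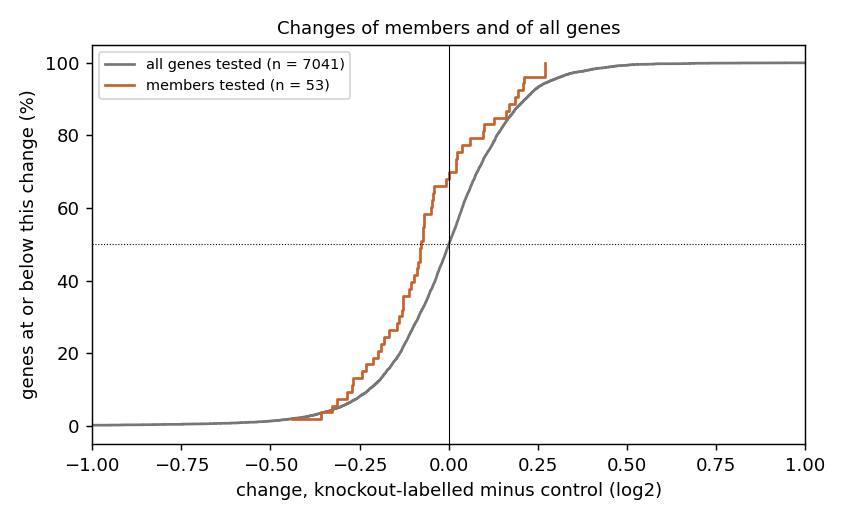
Share of genes (%, vertical axis) at or below a given change (knockout minus control, log2, horizontal axis, drawn from -1 to 1) for all 7041 genes tested in grey and the 53 members in orange. The members' curve crosses 50% at -0.08 and that of all genes at 0.00.

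In all, 10 members had 2 probes that passed the filter, and for 3 of them the calls differed between probes. When each probe was tested on its own over 9443 named probes, 6 member probes were lower and 1 higher. That is 11.1% of the 63 member probes that passed, against 7.22% of all probes. The one higher was the dimmer probe of Hspa2, an Hsp70 abundant in testis. It read 6.53, 6.17, 6.28 and 6.63 on the control arrays and 6.67, 6.89, 6.88 and 6.94 on the knockout arrays. It was higher by 0.44 without overlap (SE 0.11; limma adjusted p = 0.036 over all probes), where the brighter Hspa2 probe differed by 0.13 with overlap (adjusted p = 0.4). The sources used here do not place these probes on their transcripts.

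**Figure D5:**
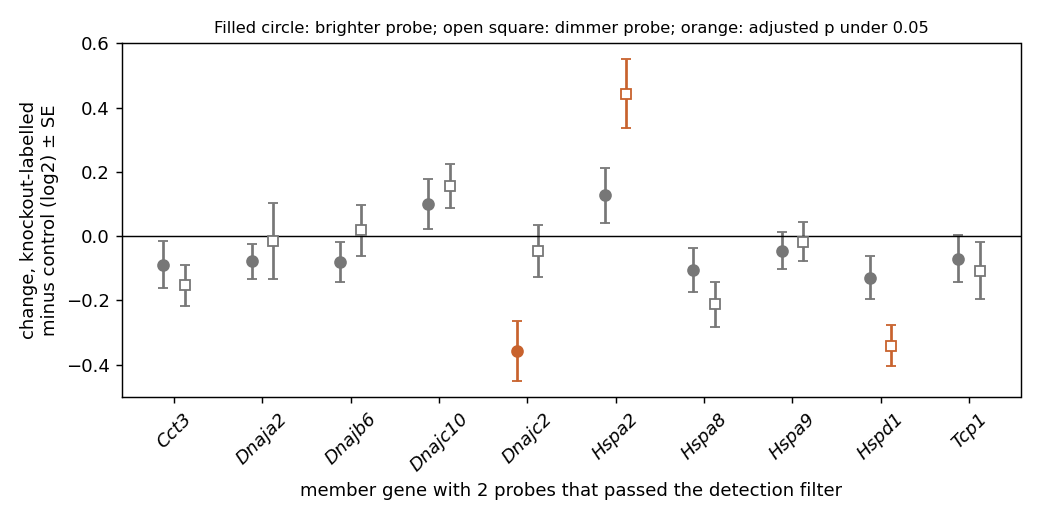
Change (knockout minus control, log2, with SE) of both probes of the 10 members with 2 that passed the filter, as circles for the brighter and squares for the dimmer probe, in orange where the adjusted p over all probes is under 0.05. The probes of Dnajc2, Hspa2 and Hspd1 differ in their call.

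The other 25 members did not pass the filter, 24 of them being detected on 0 arrays and Dnajb8 on 1. Beside those named above they were Hspa1l, Hspa4l and Hspa12a of the Hsp70 group, Dnajb3, Dnajb5, Dnajb7 and Dnajb13 of DnaJ class B, and Dnajc1, Dnajc5b, Dnajc5g, Dnajc6, Dnajc9, Dnajc11, Dnajc14, Dnajc17, Dnajc27 and Dnajc28 of class C. Several of these, such as Hspa1l, Dnajb3, Dnajb8 and Dnajb13, are known from testis. A probe that is not well above background does not show that its gene is silent.

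The genes that work beside these chaperones were read from lists chosen by function. Of 20 tested cochaperones of Hsp90, 0 passed, 10 were below 0 and the median was -0.03. Among them the prolyl isomerases Ppid and Fkbp4 differed by -0.18 and -0.20 (limma adjusted p = 0.0921 and 0.098), and the adaptor Sugt1 by 0.30 (adjusted p = 0.132). Of 13 prefoldin subunits, tubulin cofactors and CCT substrates tested, 0 passed and 8 were below 0 (median -0.03). Those with the smallest p were Pfdn2 at -0.18, Pfdn4 at -0.16 and Tbca at -0.13. Of 8 mitochondrial proteases and chaperones, 0 passed and 6 were below 0 (median -0.07). Smallest in p were Clpp at -0.14, Clpx at -0.12 and Grpel1, the exchange factor of Hspa9, at -0.12.

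Of 14 endoplasmic reticulum chaperones tested, 0 passed, and 2 were below 0, with a median of 0.07. Serpinh1, the collagen chaperone also known as Hsp47, differed by 0.21 with no overlap between the groups (limma adjusted p = 0.0792). Pdia4 and Pdia6, which form and rearrange disulfide bonds, differed by 0.20 and -0.13 (adjusted p = 0.102 and 0.231). This list includes Dnajc10, which is also a member. Of 12 other heat shock factor targets and regulators, 1 rose. This was Cryab, a small heat shock protein outside the naming rule, which read 8.31, 8.24, 8.06 and 8.13 on the control arrays and 8.51, 8.46, 8.50 and 8.51 on the knockout arrays. It rose 1.24-fold without overlap (SE 0.07 log2; adjusted p = 0.02), on the opposite side of 0 from Hspb1, Hspb6 and Hspb8. In the same list the autophagy receptor Sqstm1 differed by -0.30 (adjusted p = 0.0949).

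Markers of other cells differed between the groups, and their part in the chaperone values was not tested. The same holds for the 7 osteoblast markers tested, of which 0 passed and all were above 0 (median 0.16), Col1a2 at 0.34 (limma adjusted p = 0.0561) and Ibsp, which met the filter only through the knockout arrays, at 0.58. Their summed intensity on a linear scale was 30921 to 33752 on the control arrays and 32452 to 35720 on the knockout arrays. Of 7 macrophage markers with a probe, 5 passed the filter and all were lower in the knockout arrays, with Cd74 alone past the threshold. One of them, Tyrobp, met the filter mainly through the group where it is high, being detected on 3 control arrays and 1 knockout array. The macrophage markers summed to 2700 to 2877 on the control arrays and 1962 to 2399 on the knockout arrays. The 3 detected muscle markers summed to 399 to 512 and 359 to 397. Among them Acta1 was past the threshold at -0.73, while Tnnt1 and Tnnc1 stood at 0.23 and 0.05 and did not pass. The 3 detected cartilage markers summed to 1229 to 1579 and 1857 to 1989, with Col2a1 past the threshold. Of 7 adipocyte markers with a probe, 0 passed the filter. The sources used here give no slide or scan date, so batches could not be examined.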

How the data were processed

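Each array came with a probe intensity and a detection value that is headed as a p-value, both deposited by the authors per the file headers. The intensity was linear, with array medians from 126 to 155, so it was taken as not normalized. The deposited detection p-value rose with intensity (Spearman correlation at least 0.979), so 1 minus it was used. A second deposited table held log2 values with the same distribution on every array, and served as an alternative. Per the submitters' processing notes the software was GenomeStudio, with no version.

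Intensities were processed with neqc (offset 16) in limma 3.58.1 under R 4.3.3. A probe was kept where its detection p was under 0.01 on 4 or more of the 8 arrays (10004 probes). The annotation named 1 gene for 23978 probes and none for 1719. The brightest kept probe stood for a gene. The group difference was fitted by lmFit and eBayes with no covariate, and p-values were adjusted by Benjamini-Hochberg over all genes tested, and the steps were tested on simulated data. Intervals cover the spread between arrays, whose number limits the precision. Genes named were members called, the 3 smallest p in each role, a fixed set of well-known members, members detected on some arrays or with probes of opposite sign, and up to 3 genes of each other list. The remaining members were added to account for all. Members and lists were chosen with earlier results of these data known.

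No 2 arrays held identical values. Alternatives tried were other background corrections and normalizations, the log2 table, other detection filters, other uses of a gene's probes, another prior, a replicate block and leaving out each array.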

Additional observations from a re-analysis of the deposited data

Results flagged for a closer look

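Among 106 groups of 4 arrays examined, 2 for each member tested, 5 had an array far from the other 3, and chance gives about 1 in 20. Stip1 on knockout array 1 stood at 10.73 log2 while the other 3 knockout arrays lay between 10.84 and 10.85. Hspa12b on control array 2 stood at 6.25 and the others between 5.93 and 5.98. Dnaja2 on control array 4 stood at 8.17 against 8.24 for the other 3. Hspb6 on knockout array 4 stood at 12.12 against 12.24 to 12.27, and Hspbap1 on knockout array 1 at 7.03 against 6.72 to 6.76.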

How the results depend on the processing

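With 1 array left out, members called lower numbered 0 to 4 (5 with all arrays), members higher 0 in each case, all genes called 323 to 718 (607 with all arrays), and the members' median change -0.09 to -0.07. Members lower numbered 0 without the detection filter and 3 when scaled to the 75th percentile. Members higher numbered 1, Hspa2, with the mean of a gene's probes and with each probe on its own. All genes called numbered 977 with no background correction, 969 in the authors' log2 table, 965 with a trended and robust prior and 376 with no detection filter. The members' median was -0.041 when scaled to the 75th percentile, and -0.042 without the detection filter. With the replicate number as a block, members lower numbered 4, of which 3 were among the 5, all genes called numbered 408, and Cct6a had an adjusted p of 0.121. Deviations of same-numbered arrays correlated at -0.03 to 0.09. Array noise enters these values too, so they do not settle whether the numbers pair the arrays, and the labels do not say. No called member changed sign under any setting run. Of the members tested, Hspa1a, whose probe was near background, had the widest interval. The causes of these shifts were not tested.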
